A study of Mus musculus with 12 samples.

Results

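The 40 genes described here act in the G2 phase and in mitosis and were taken as a list of gene symbols. All 40 were found among the 21754 genes of the deposited table, and all 40 passed the filter on low counts that left 15293 genes for testing. RNA was measured by bulk SCRB-seq, which tags and counts the 3' ends of transcripts, in 4 populations that were sorted from bone marrow of 3 individual mice of the inbred strain C57BL/6. The populations were pre-cDCs, the Siglec-H-negative precursors of conventional dendritic cells (cDCs), and 3 Siglec-H+ populations: lo-lo cells (CCR9lo-B220lo), lo-hi cells (CCR9lo-B220hi) and plasmacytoid dendritic cells (pDCs, CCR9hi-B220hi). The labels give the strain but no other genotype, treatment, time or age for any group, and each population had 3 libraries.

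The cell types on the deposited labels were set aside for these comparisons. Each library is named by the well of the plate, and the populations are pre-cDC in wells A1, A5 and A9, lo-lo in A2, A6 and A10, lo-hi in A3, A7 and A11, and pDC in A4, A8 and A12. This assignment rests on the order of 28 transcription factor genes, none of them among the 40, in the named samples of the study's source data. In each of the 12 wells, all 378 pairs of these genes stood in the same order as in 1 source sample, and any other well had at least 7 pairs in another order. The labels give the same population in 4 of the 12 wells (A1, A6, A7 and A12) and another population in 8. With the libraries grouped by their labels instead, edgeR's quasi-likelihood test called 0 of the 40 genes and 0 of all 15293 in every comparison below, and 0 of the 40 had an unadjusted p under 0.05. DESeq2 was not run with the label grouping. Beside each comparison, the median change under the labels is given as well. Values for a population are given in the order of wells stated here.

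The mitotic programme is driven by cyclin-dependent kinase 1 with the A and B cyclins, which the cell makes anew in every cycle. Aurora and Polo-like kinases, the spindle checkpoint and the anaphase-promoting complex (APC/C) then order the attachment and the separation of chromosomes, and the RhoA pathway divides the cell. Transcription of these genes peaks late in the cycle. In resting cells, the DREAM complex of MuvB, p130 and E2F4 holds many of them down through a cell cycle genes homology region (CHR) in the promoter, and in cycling cells B-Myb and FoxM1 bind MuvB at such sites, while NF-Y binds CCAAT boxes upstream. Among dendritic cells, mature pDCs are known as largely non-dividing cells, whereas some of their bone marrow precursors divide. In the study's cultures, a part of the cells derived from lo-lo precursors had divided. Cells derived from lo-hi precursors had not. Both were sorted there with added markers.

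All 40 genes were lower in pDCs than in pre-cDCs. The summed level of the 40 genes, in CPM (counts relative to library totals scaled by edgeR's TMM method), was 4330, 3793 and 4456 in the pre-cDC libraries and 4001, 4247 and 4180 in the lo-lo libraries. It was 1858, 1847 and 2293 in lo-hi cells and 884.2, 925.2 and 1056 in pDCs. The pre-cDC and lo-lo libraries overlapped in this sum, the lo-hi libraries lay below both, and the pDC libraries were lowest. As a share of all counts, the 40 genes took 0.355 to 0.45% in pre-cDCs, 0.423 to 0.447% in lo-lo cells, 0.174 to 0.231% in lo-hi cells and 0.0866 to 0.105% in pDCs. In these bulk samples, fewer cells in mitosis and less RNA of these genes per cell cannot be told apart.

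**Figure D1:**
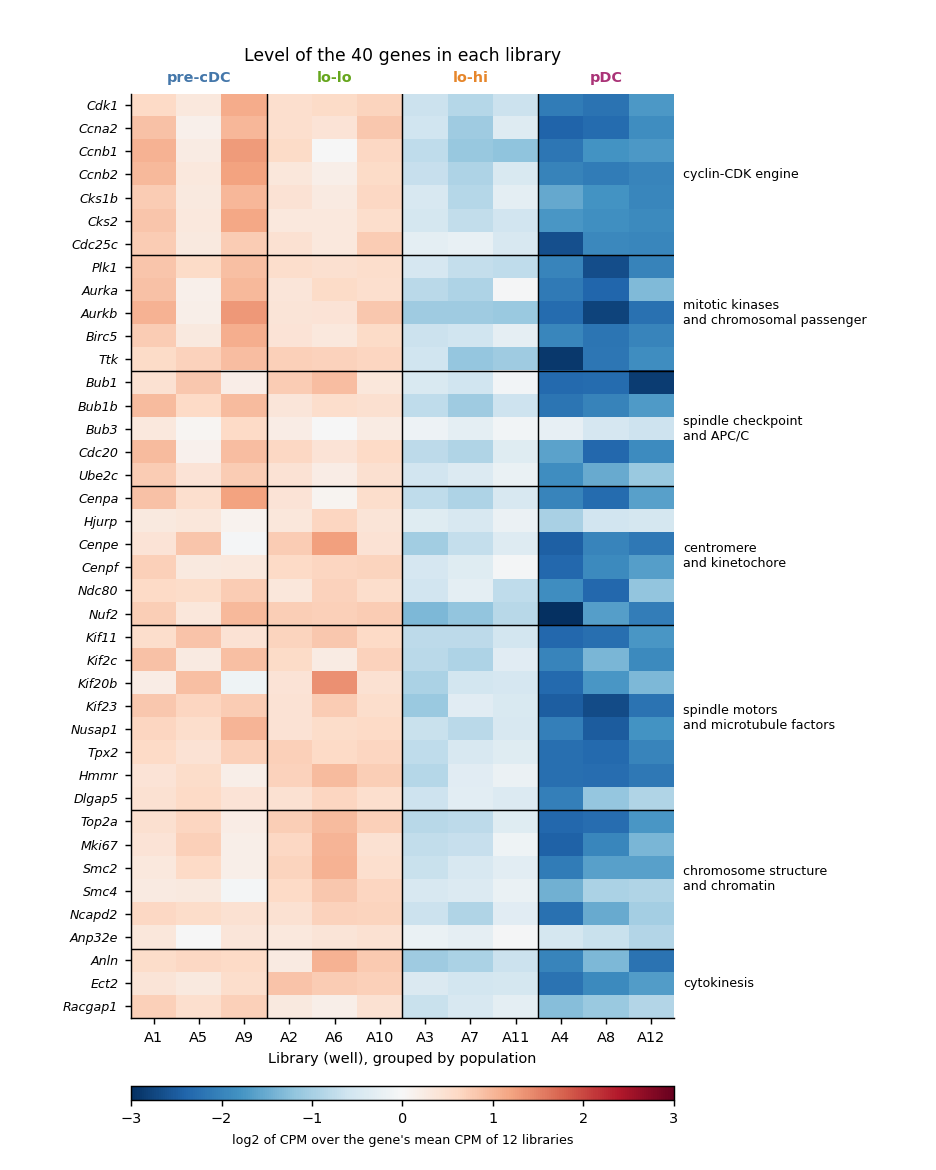
Level of each of the 40 genes (rows, grouped by role) in each of the 12 libraries (columns, named by well and grouped by population), as the log2 of CPM over the gene's mean CPM of the 12 libraries. Red is above and blue below that mean. The lo-hi columns are paler blue than the pDC columns, and the rows of Bub3, Hjurp and Anp32e change least.

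In edgeR's quasi-likelihood fit, with p-values adjusted by Benjamini-Hochberg over all 15293 genes and a cutoff of 0.01, 40 of the 40 genes differed between the 4 populations, where 19.9% of all genes tested did. From pre-cDC to pDC, 40 of the 40 genes fell, against 10.4% of all genes, with a median log2 fold change of -2.62 and a range from -3.35 for Aurkb to -0.79 for Bub3. From lo-lo to pDC, 40 of the 40 fell, against 7.08% of all genes, with a median of -2.53. The median over all genes tested was 0.05 in the first and 0.02 in the second of these comparisons. Under the label grouping, the medians of the 40 genes were -0.47 and -0.18. The levels of the 40 genes moved together across the 12 libraries. Over the 780 pairs of genes, Pearson's r of log2 CPM ranged from 0.632 to 0.996 with a median of 0.947, a description over libraries that share their scaling and the population differences. Bub3 had the lowest median r with the other genes, 0.842, followed by Kif20b with 0.893.

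Promoter sequences were found in RefSeq (GRCm38.p6) for 34 of the 40 genes, each from 250 bases before to 50 bases after the start site. A CHR, searched as TTTGAA or TTCGAA on both strands, was present in 28 of the 34 (82.4%), compared with 16.9% of the 10058 genes tested that have such a promoter and 21.7% of all 27025 genes with one. A CCAAT box (CCAAT on both strands) was present in 27 (79.4%), compared with 42.9% of the genes tested and 41.1% of all genes. Both were present in 24 (70.6%), compared with 7.06% and 8.61%. An E2F site, searched as TTCCCGCC, TTTGGCGC or TTTCCCGC on both strands, was present in 1 of the 34 (2.94%, in Ncapd2), compared with 6.81% and 3.69%. The E2F words TTCCCGCC and TTTCCCGC can overlap each other, and each promoter was counted once. The CHR nearest to the start site lay at positions -195 to 41 relative to it, and in 24 of the 28 genes within 50 bases. Such matches are descriptions of letters and not of bound sites.

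**Figure D2:**
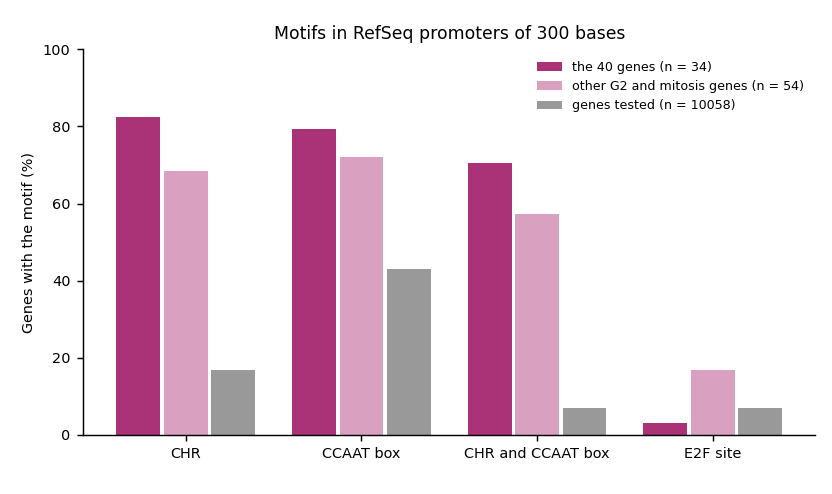
Percentage of genes (y axis, from 0 to 100) whose RefSeq promoter of 300 bases holds each motif (x axis), for the 40 genes (34 with a promoter), for 66 other G2 and mitosis genes (54 with a promoter) and for the genes tested (10058 with a promoter). The bars of both G2 and mitosis lists are higher than those of the genes tested for the CHR, the CCAAT box and both together.

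Promoter windows (GRCm38.p6) from 170 bases before to 30 bases after the start site are shown for 7 of the genes, to set those with a CHR beside CCAAT boxes next to the gene that changed least and to 1 gene with neither motif. Capitals mark the CHR (TTTGAA, or TTCAAA on the other strand, and TTCGAA) and the CCAAT box (CCAAT, or ATTGG on the other strand). Sequences run from 5' to 3' on the strand of the gene.
Cdk1 (chr10:69352883-69353082, minus strand): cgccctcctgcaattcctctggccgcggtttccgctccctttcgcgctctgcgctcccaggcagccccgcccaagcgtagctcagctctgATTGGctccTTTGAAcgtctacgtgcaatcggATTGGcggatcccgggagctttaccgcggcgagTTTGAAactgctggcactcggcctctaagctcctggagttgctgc
Ccnb2 (chr9:70421525-70421724, minus strand): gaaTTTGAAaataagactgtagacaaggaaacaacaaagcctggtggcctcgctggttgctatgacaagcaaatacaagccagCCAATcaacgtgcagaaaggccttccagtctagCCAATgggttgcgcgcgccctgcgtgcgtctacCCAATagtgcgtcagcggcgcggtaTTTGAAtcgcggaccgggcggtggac
Cdc20 (chr4:118437314-118437513, minus strand): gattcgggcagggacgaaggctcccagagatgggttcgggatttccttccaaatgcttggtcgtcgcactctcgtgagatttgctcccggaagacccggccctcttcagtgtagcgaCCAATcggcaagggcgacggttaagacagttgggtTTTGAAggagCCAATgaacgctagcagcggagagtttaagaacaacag
Kif23 (chr9:61946770-61946969, minus strand): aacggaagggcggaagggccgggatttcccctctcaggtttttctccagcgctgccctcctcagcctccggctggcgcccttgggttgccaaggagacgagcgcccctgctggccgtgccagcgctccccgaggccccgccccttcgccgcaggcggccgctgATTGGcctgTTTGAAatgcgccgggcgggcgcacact
Top2a (chr11:99024160-99024359, minus strand): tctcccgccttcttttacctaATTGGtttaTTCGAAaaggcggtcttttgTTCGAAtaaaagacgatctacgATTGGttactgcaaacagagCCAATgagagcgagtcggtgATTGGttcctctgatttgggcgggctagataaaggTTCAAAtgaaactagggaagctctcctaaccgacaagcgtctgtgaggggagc
Bub3 (chr7:131560200-131560399, plus strand): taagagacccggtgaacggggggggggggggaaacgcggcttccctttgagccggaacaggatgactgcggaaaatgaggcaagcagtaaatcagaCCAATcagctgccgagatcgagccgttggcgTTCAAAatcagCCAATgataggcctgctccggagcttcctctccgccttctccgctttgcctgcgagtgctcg
Birc5 (chr11:117849067-117849266, plus strand): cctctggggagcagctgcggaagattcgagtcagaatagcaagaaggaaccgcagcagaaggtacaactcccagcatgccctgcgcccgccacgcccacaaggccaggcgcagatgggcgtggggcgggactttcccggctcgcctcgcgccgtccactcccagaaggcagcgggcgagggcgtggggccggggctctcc
In Cdk1, Ccnb2, Cdc20 and Kif23, a CHR lies at or close to the start site and follows at least 1 CCAAT box. Bub3 has a pair of annotated start sites, of which the upstream one is shown. Top2a has 4 CHR matches and 6 CCAAT boxes in the whole promoter. The promoter of Bub3 also holds a CHR and 2 CCAAT boxes, although its level changed least, and Birc5 holds neither motif and fell by 2.79 on the log2 scale from pre-cDC to pDC. Nuf2 and Nusap1 also held neither motif, and Ccnb1, Cenpe and Cks2 held CCAAT boxes but no CHR.

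The engine of mitotic entry consists of Cdk1, its cyclins Ccna2, Ccnb1 and Ccnb2, the kinase subunits Cks1b and Cks2, and the phosphatase Cdc25c, which removes the inhibitory phosphates of Cdk1. In pDCs, these 7 genes were at 13.4 to 18.1% of their mean CPM in pre-cDCs. Ccnb2 (chr9:70407692-70421547, minus strand of GRCm38) had a CPM of 153, 98.2 and 181 in pre-cDCs, 99.8, 88.0 and 117 in lo-lo cells, 48.8, 41.4 and 56.8 in lo-hi cells and 19.6, 18.3 and 19.96 in pDCs. Pre-cDC and lo-lo libraries overlapped, and the other populations stood apart. The log2 fold change of Ccnb2 was -1.05 ± 0.20 (SE) from lo-lo to lo-hi and -1.34 ± 0.21 from lo-hi to pDC (edgeR adjusted p = 0.000599 and 0.000503). Cks1b (chr3:89415472-89418383, minus strand) had a CPM of 283, 205 and 329 in pre-cDCs, 224, 201 and 254 in lo-lo cells, 119.7, 91.6 and 136 in lo-hi cells and 57.4, 47.7 and 42.5 in pDCs. It showed the same order of populations, with a log2 fold change of -0.97 ± 0.18 and -1.22 ± 0.19 at the steps to lo-hi and to pDC (edgeR adjusted p = 0.000717 and 0.000395), and without well A7 the first call was lost (0.0127). Cdk1 itself was at 67.9 ± 19.5 CPM (SD, n = 3) in pre-cDCs, 61.9 ± 3.74 in lo-lo cells, 25.2 ± 2.08 in lo-hi cells and 10.4 ± 1.96 in pDCs, and Ccna2 at 105.8 ± 29.8, 96.5 ± 14.7, 40.9 ± 9.65 and 14.3 ± 3.07. At the step to lo-hi, where 2.83% of all genes fell, 6 of the 7 genes fell and Cdc25c missed the cutoff (-0.86 ± 0.25, edgeR adjusted p = 0.0325). At the step to pDC, where 0.844% of all genes fell, 6 of the 7 fell and Ccnb1 missed the cutoff (-0.94 ± 0.28, edgeR adjusted p = 0.0845).

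Of the mitotic kinases and the chromosomal passenger complex, Plk1 and Aurka act at the centrosomes and spindle poles, Aurkb and its partner Birc5 (survivin) correct faulty attachments at the centromere, and Ttk starts the spindle checkpoint. Aurkb (chr11:69045647-69051664, plus strand) had the largest change of the 40 genes. Its CPM was 76.7, 42.1 and 90.9 in pre-cDCs, 48.1, 49.1 and 65.2 in lo-lo cells, 17.7, 17.6 and 17.1 in lo-hi cells and 7.49, 5.37 and 7.81 in pDCs, which is 9.86% of the pre-cDC mean. The log2 fold change of Aurkb was -1.64 ± 0.23 at the step to lo-hi and -1.33 ± 0.28 at the step to pDC (edgeR adjusted p = 3.59e-05 and 0.00797). The second of these calls was lost without well A1 and without any single lo-hi or pDC library (adjusted p = 0.0127 to 0.0628). Birc5 (chr11:117849251-117855743, plus strand) had a CPM of 309, 223 and 389 in pre-cDCs, 243, 227 and 268 in lo-lo cells, 116, 119.5 and 152 in lo-hi cells and 47.0, 39.8 and 46.0 in pDCs. Its log2 fold change was -0.93 ± 0.18 and -1.54 ± 0.19 at the same steps (edgeR adjusted p = 0.000738 and 2.25e-05), and without well A3 the first call was lost (0.0127). Plk1 was at 44.8 ± 5.06 CPM (SD, n = 3) in pre-cDCs, 37.4 ± 0.793 in lo-lo cells, 16.7 ± 1.66 in lo-hi cells and 5.75 ± 1.43 in pDCs, and Ttk at 2.67 ± 0.896 in pDCs, or 12.7% of its pre-cDC mean. All 5 genes of this class fell from lo-lo to lo-hi, against 2.83% of all genes, and 4 of the 5 fell from lo-hi to pDC, against 0.844%. The exception was Aurka at the edge of the cutoff (-1.36 ± 0.29, edgeR adjusted p = 0.0101).

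The spindle checkpoint holds the APC/C until every chromosome is attached. Bub1 and Bub1b (BubR1) are checkpoint proteins that Bub3 brings to the kinetochore, Cdc20 is the activator of the APC/C that the checkpoint inhibits, and Ube2c is the ubiquitin-conjugating enzyme of the complex. Ube2c (chr2:164769898-164778822, plus strand) had a CPM of 276, 214 and 276 in pre-cDCs, 218, 190.1 and 225 in lo-lo cells, 108, 121 and 140.5 in lo-hi cells and 44.8, 56.5 and 75.1 in pDCs. It fell at both steps (-0.78 ± 0.17 and -1.08 ± 0.18, edgeR adjusted p = 0.00381 and 0.000915). The first call was lost without well A2, A3, A7 or A10 (adjusted p = 0.0181 to 0.047) and the second without A8 or A11 (0.0122 and 0.0157). Bub3 (chr7:131560222-131571895, plus strand) kept most of its level. The CPM of Bub3 was 161, 133 and 196 in pre-cDCs, 150.0, 128 and 154 in lo-lo cells, 116, 104 and 122 in lo-hi cells and 108, 90.3 and 84.2 in pDCs, so that its pDC mean was 57.7% of the pre-cDC mean. Neither step of Bub3 passed the cutoff (-0.34 ± 0.16 and -0.27 ± 0.16, edgeR adjusted p = 0.259 and 0.591), whereas the whole difference from pre-cDC to pDC did (-0.79 ± 0.16, edgeR adjusted p = 0.000463). Cdc20 had 47.6 ± 13.7 CPM (SD, n = 3) in pre-cDCs and 7.68 ± 1.93 in pDCs, and Bub1b 50.1 ± 6.91 and 7.25 ± 1.3. Bub3 also acts outside mitosis in splicing, and its partner Bub1 had the largest drop of the 40 genes from lo-hi to pDC (-2.01 ± 0.35, edgeR adjusted p = 0.00107). That value rests on few counts, the lowest being 3 in well A12.

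At the centromere, Cenpa is the histone variant that marks the site, Hjurp is its chaperone, Ndc80 and Nuf2 bind microtubules in the outer kinetochore, and Cenpe and Cenpf are large proteins of the corona. Cenpa (chr5:30666777-30674830, plus strand) had a CPM of 188, 146 and 237 in pre-cDCs, 136, 108 and 147 in lo-lo cells, 60.3, 53.8 and 73.8 in lo-hi cells and 25.9, 20.9 and 33.4 in pDCs. Its log2 fold change was -1.06 ± 0.20 and -1.24 ± 0.21 at the steps to lo-hi and to pDC (edgeR adjusted p = 0.000545 and 0.000921), and the second call was lost without well A8 or A11 (0.0155 and 0.0172). Cenpf (chr1:189640606-189688086, minus strand) had a CPM of 189, 141 and 144 in pre-cDCs, 175, 182 and 185 in lo-lo cells, 81.9, 90.5 and 112 in lo-hi cells and 22.6, 31.0 and 36.9 in pDCs. Its change was -0.94 ± 0.18 to lo-hi and -1.67 ± 0.19 to pDC (edgeR adjusted p = 0.000717 and 1.78e-05), and without well A3 the first call was lost (0.0142). All 6 genes of this class fell at the step to lo-hi, against 2.83% of all genes. Nuf2 had the largest change of the 40 genes at the step to lo-hi (-1.89 ± 0.27, edgeR adjusted p = 4.65e-05). At the step to pDC, 4 of the 6 fell, against 0.844% of all genes. Ndc80 was at 27.9 ± 2.21 CPM (SD, n = 3) in pre-cDCs and 5.41 ± 2.2 in pDCs, and Cenpe at 78.1 ± 23.4 and 12.7 ± 2.0. Hjurp stayed at 52.4% of its pre-cDC mean in pDCs and did not pass at that step (-0.36 ± 0.17, edgeR adjusted p = 0.435), unlike Cenpa, whose pDC mean was 14% of that in pre-cDCs. Whether Hjurp and Cenpa differ in their change was not tested.

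The spindle is built and moved by the kinesins Kif11, Kif2c, Kif20b and Kif23 and by the microtubule-binding proteins Nusap1, Tpx2, Hmmr and Dlgap5. Nusap1 (chr2:119618298-119651244, plus strand) had a CPM of 135, 124 and 173 in pre-cDCs, 116, 125 and 129.8 in lo-lo cells, 54.3, 48.6 and 61.7 in lo-hi cells and 20.8, 15.2 and 24.7 in pDCs. It changed by -1.17 ± 0.18 and -1.45 ± 0.19 at the steps to lo-hi and to pDC (edgeR adjusted p = 6.96e-05 and 6.94e-05). Kif23 (chr9:61915905-61946774, minus strand), the motor of the central spindle, had a CPM of 107, 94.7 and 102 in pre-cDCs, 81.8, 103 and 87.5 in lo-lo cells, 28.1, 48.1 and 44.6 in lo-hi cells and 10.9, 9.48 and 13.0 in pDCs. Its level in pDCs, 11% of the pre-cDC mean, was the lowest after that of Aurkb, and its change was -1.21 ± 0.19 to lo-hi and -1.83 ± 0.22 to pDC (edgeR adjusted p = 9.36e-05 and 1.78e-05). All 8 genes of this class fell to lo-hi, against 2.83% of all genes, and 5 of the 8 fell to pDC, against 0.844%. Kif2c, Kif20b and Dlgap5 did not pass at the step to pDC (-0.92 to -1.16, edgeR adjusted p = 0.0608 to 0.164). Kif11, the motor that pushes the spindle poles apart, went from 65.0 ± 9.96 CPM (SD, n = 3) in pre-cDCs to 9.92 ± 2.32 in pDCs, and Tpx2, which activates Aurka on the spindle, from 59.3 ± 5.5 to 8.68 ± 1.13. Hmmr was at 30.2 ± 3.89 CPM in pre-cDCs, 39.9 ± 3.88 in lo-lo cells and 4.9 ± 0.262 in pDCs. The lo-lo libraries of Kif20b were uneven, with a CPM of 35.4, 68.6 and 36.4.

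Chromosome structure is set by topoisomerase II alpha (Top2a), the surface protein of mitotic chromosomes Mki67 (Ki-67, the common marker of dividing cells), the condensin subunits Smc2, Smc4 and Ncapd2, and Anp32e, a chaperone that removes the histone variant H2A.Z. Top2a (chr11:98992943-99024189, minus strand) had a CPM of 401, 448 and 337 in pre-cDCs, 482, 558 and 471 in lo-lo cells, 162, 167 and 225 in lo-hi cells and 56.4, 58.8 and 86.3 in pDCs. Every lo-lo library was above every pre-cDC library, although the difference did not pass (0.35 ± 0.17, edgeR adjusted p = 0.286). From there Top2a fell by 1.45 on the log2 scale to lo-hi (SE 0.18, edgeR adjusted p = 7.56e-06) and by 1.47 to pDC (SE 0.18, edgeR adjusted p = 2.83e-05). Anp32e (chr3:95929246-95947390, plus strand) had a CPM of 241, 187 and 242 in pre-cDCs, 235, 247 and 258 in lo-lo cells, 165, 157 and 184 in lo-hi cells and 130.5, 119 and 103 in pDCs. The populations followed the same order as for Top2a, but neither step of Anp32e passed (-0.55 ± 0.15 and -0.52 ± 0.15, edgeR adjusted p = 0.0189 and 0.08), and its pDC mean was 52.6% of that in pre-cDCs. The first passed in DESeq2 (adjusted p = 0.00427), and over the alternatives that kept the grouping its adjusted p ranged from 0.000798, with only the 6 libraries of the step, to 0.183, without wells A1 to A4. Mki67 was at 232.8 ± 44.7 CPM (SD, n = 3) in pre-cDCs, 280.8 ± 57.5 in lo-lo cells, 121 ± 29.7 in lo-hi cells and 46.9 ± 17.2 in pDCs, and fell at both steps (edgeR adjusted p = 0.00207 and 0.00396). The first call on Mki67 was lost without well A3 or A7, and the second without A8 or A11. At the steps to lo-hi and to pDC, 5 and 3 of these 6 genes fell, against 2.83% and 0.844% of all genes. Smc4 was at 41.7% in pDCs, compared with 22.6% for Smc2, its partner in condensin, and 24% for Ncapd2.

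Of the 3 genes of cytokinesis, Ect2 activates RhoA, Racgap1 recruits Ect2 to the central spindle together with Kif23, and Anln is the scaffold of the contractile ring. Racgap1 (chr15:99620496-99651656, minus strand) had a CPM of 177, 153 and 177 in pre-cDCs, 134, 122 and 149 in lo-lo cells, 68.2, 78.1 and 88.7 in lo-hi cells and 44.6, 49.9 and 58.6 in pDCs. It fell to lo-hi (-0.79 ± 0.16, edgeR adjusted p = 0.00149), a call lost without well A3, A7 or A10, and missed the cutoff at the step to pDC (-0.62 ± 0.17, edgeR adjusted p = 0.0461), although its pDC libraries did not overlap with its lo-hi libraries. Ect2 (chr3:27097222-27153878, minus strand) had a CPM of 22.0, 20.3 and 24.0 in pre-cDCs, 30.1, 28.3 and 27.2 in lo-lo cells, 12.4, 11.4 and 11.6 in lo-hi cells and 3.58, 4.42 and 5.21 in pDCs. Its change was -1.26 ± 0.20 and -1.48 ± 0.24 at the steps to lo-hi and to pDC (edgeR adjusted p = 9.25e-05 and 0.000691), and without well A4 the second call was lost (0.0123). Anln fell to lo-hi (-1.64 ± 0.26, edgeR adjusted p = 0.000107) but did not pass at the step to pDC (-0.88 ± 0.32, edgeR adjusted p = 0.211).

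**Figure D3:**
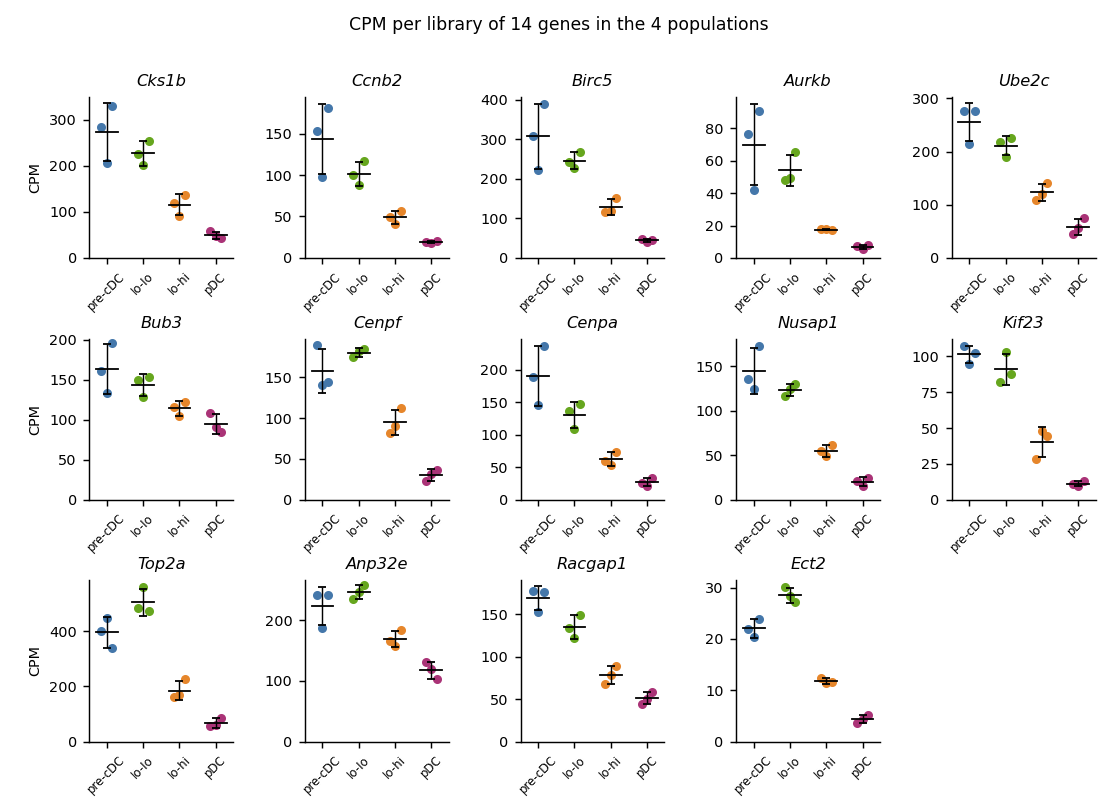
CPM (y axis, from 0) of 14 genes in the libraries of the 4 populations (x axis). Points are single libraries, horizontal lines the means of 3 libraries and error bars the SD. In all panels except that of Bub3, the pDC points lie below the lo-hi points, and in all 14 the lo-hi points lie below the lo-lo points.

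From pre-cDC to lo-lo, 0 of the 40 genes passed the cutoff, where 3.16% of all genes did. The median log2 fold change was -0.11, the values ranged from -0.55 for Cenpa to 0.50 for Smc4, the SE was 0.148 to 0.288, and the smallest adjusted p by edgeR was 0.0672, for Smc4. DESeq2 also called 0 of the 40. An unadjusted p under 0.05 was reached by 9 of the 40 genes in edgeR and by 7 in DESeq2, and in edgeR by 2694 of all 15293 genes, so that the share among the 40 was near that of all genes. All 7 genes of the cyclin-CDK engine and all 5 of the mitotic kinases had values below 0, and all 6 of chromosome structure and chromatin had values above 0, none of which passed. Without well A5, a pre-cDC library, 3 of the 40 genes passed as lower in lo-lo cells: Ccnb1, Ccnb2 and Cenpa. In that fit, 662 of all 15347 genes tested passed in either direction. Under the label grouping, the median was -0.26.

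The sign of the difference between lo-lo and pre-cDC went with the length of the transcript. Across the 40 genes, the log2 fold change from pre-cDC to lo-lo had a Pearson's r of 0.713 and a Spearman's rho of 0.771 with the log2 length of the longest coding transcript in GENCODE, which ranged from 692 bases for Cks2 to 11130 bases for Cenpf. Over the 12125 tested genes with a coding transcript, r was 0.167 and rho 0.247. A relation with length was also present between the 3 groups of 4 neighbouring wells, taken as the deviation of each library from the mean of its population. In wells A5 to A8, r was 0.641 for the 40 genes and 0.297 for all genes. It was -0.599 and -0.25 in wells A1 to A4, and -0.428 and -0.08 in wells A9 to A12. For each gene, the deviations of the 3 groups cancel by construction. A positive r in any group therefore forces a negative r elsewhere, and these values are not separate observations. Kif20b, with 5564 bases, deviated by 0.34 on the log2 scale in wells A5 to A8, whereas Cdc20, with 1793 bases, deviated by -0.31. These are correlations across genes that were read in the same libraries, and genes are not independent replicates. From pre-cDC to pDC, r was 0.245 for the 40 genes. The part of transcript length in these differences was not tested.

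**Figure D4:**
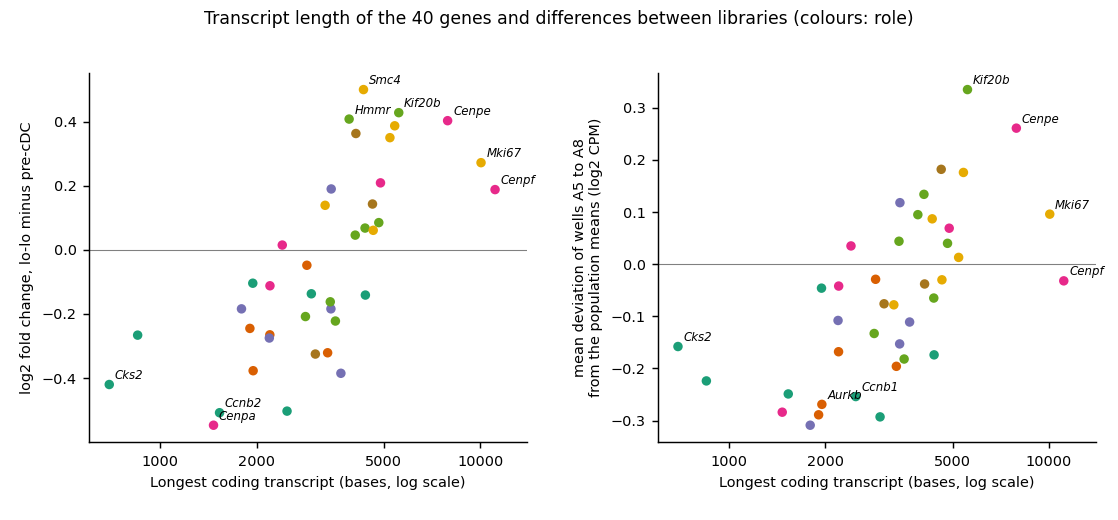
Length of the longest coding transcript (x axis, bases on a log scale) of the 40 genes against the log2 fold change from pre-cDC to lo-lo (left) and against the mean deviation of wells A5 to A8 from the population means in log2 CPM (right). Points are genes, coloured by role as in the plot of the changes at both steps. Short transcripts such as Cks2 and Cenpa lie below 0 and long ones such as Cenpe and Kif20b above 0 in both panels. Not all long transcripts do so. Cenpf, the longest, lies at -0.03 in the right panel, and Cdk1, with 4375 bases, lies below 0 in both.

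From lo-lo to lo-hi, 37 of the 40 genes fell, against 2.83% of all genes, and 0 rose. The median log2 fold change was -1.20, with a range from -1.89 for Nuf2 to -0.34 for Bub3, and the median over all genes tested was 0.01. Bub3, Cdc25c and Anp32e did not pass. In 40 of the 40 genes every lo-hi library was below every lo-lo library, which held for 13.9% of all genes tested. The number of the 40 genes that passed depended on single lo-hi libraries, with 25 without well A3 and 26 without well A7. Of all genes tested, 790 passed in either direction with all libraries, 381 without well A3 and 513 without well A7. Among the 37 genes, 23 passed whichever of the 12 libraries was left out. Under the label grouping, the median was -0.22.

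From lo-hi to pDC, 26 of the 40 genes fell, against 0.844% of all genes, and 0 rose. The median log2 fold change was -1.31, with a range from -2.01 for Bub1 to -0.27 for Bub3, and the median over all genes tested was 0.03. The 14 genes that did not pass were Ccnb1, Aurka, Bub3, Cdc20, Hjurp, Nuf2, Kif2c, Kif20b, Dlgap5, Smc4, Ncapd2, Anp32e, Anln and Racgap1. In 39 of the 40 genes every pDC library was below every lo-hi library, the exception being Bub3, and this held for 9.1% of all genes tested. Without well A8 or well A11, 17 of the 40 genes passed, and 14 of the 26 passed whichever library was left out. Of all genes tested, 147 passed in either direction with all libraries, 74 without well A8 and 65 without well A11. Under the label grouping, the median was -0.0055. Genes of other marrow cells had lower values in pDCs at the same step. All 9 neutrophil and granule genes had values below 0 (median log2 fold change -1.45, 6 with an unadjusted p under 0.05, 0 past the cutoff), as did all 8 B lineage genes (median -0.57, 0 past the cutoff). The same held for the 3 T and NK genes tested, the 4 basophil and mast cell genes and 5 of the 8 erythroid genes, with 0 past the cutoff. At the step from lo-lo to lo-hi, the neutrophil and B lineage lists had values above 0 for all genes (medians 0.53 and 0.70). So did the 3 T and NK genes, the 4 basophil and mast cell genes and 7 of the 8 erythroid genes (medians 1.56, 0.78 and 0.51). Of these lists, 1 B lineage gene passed as higher (edgeR adjusted p = 0.00717), where 357 of all genes tested did. The part of such other cells in the levels of the 40 genes was not tested.

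No gene passed the test of a difference in size between the step to lo-hi and the step to pDC. The change to lo-hi was larger in 17 genes and the change to pDC in 23. The difference between the steps passed in 0 of the 40 genes by edgeR's quasi-likelihood test, where 0% of all genes tested passed and 796 had an unadjusted p under 0.05. An unadjusted p under 0.05 was reached by 1 of the 40 in edgeR, Cenpf (0.73 ± 0.31 less negative at the step to lo-hi, adjusted p = 0.891), and DESeq2 called 0 with 1 such gene. The values leaned most to the step to lo-hi in Nuf2 and Anln (difference -0.72 ± 0.58 and -0.76 ± 0.52) and to the step to pDC in Cdc25c and Bub1 (1.03 ± 0.52 and 0.95 ± 0.52), and none of these 4 differences passed (adjusted p = 0.952 to 1). The median difference was 0.04, and under the label grouping it was -0.15. From pre-cDC to lo-hi, 34 of the 40 genes fell, against 6.32% of all genes, with a median of -1.21. Under the label grouping, this median was -0.46.

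**Figure D5:**
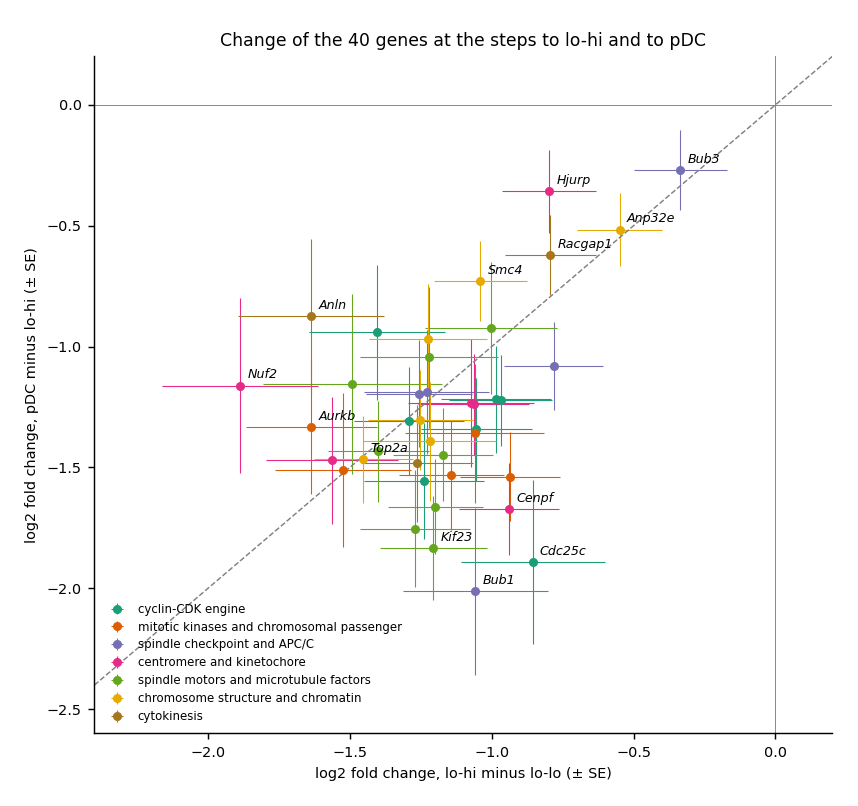
Log2 fold change of the 40 genes from lo-lo to lo-hi (x axis) and from lo-hi to pDC (y axis). Points are genes, coloured by role, bars are SE, and the dashed line marks equal changes. All points lie below 0 on both axes, with Bub3 and Anp32e near 0 on both, and points lie on both sides of the dashed line.

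Other genes of G2 and mitosis that are not among the 40 moved in the same direction. Of 66 such genes, 64 fell from pre-cDC to pDC, 48 from lo-lo to lo-hi and 29 from lo-hi to pDC, with median log2 fold changes of -2.39, -1.18 and -1.21. Of all genes tested, 10.4%, 2.83% and 0.844% fell in these comparisons. The fitted changes from pre-cDC to pDC were largest for Kifc1, Ska1 and Kif20a. Ska1, a kinetochore protein, changed by -3.29 ± 0.34 (edgeR adjusted p = 3.76e-08). Kifc1, a minus-end kinesin, had a CPM of 7.09 to 9.08 in pre-cDCs and of 0.852, 0.316 and 0.434 in pDCs, and Kif20a, a motor of cytokinesis, of 2.05 to 4.46 and of 0.17 to 0.434. In pDCs, Kifc1 in wells A8 and A12 and Kif20a in all 3 wells were under the floor of 3 counts, so that no fold is given (edgeR adjusted p = 1.49e-07 and 0.000549). Pttg1 (securin, the inhibitor of separase) went the other way. The CPM of Pttg1 was 40.4, 33.7 and 44.9 in pre-cDCs, 43.1, 32.8 and 40.4 in lo-lo cells, 51.7, 45.01 and 47.9 in lo-hi cells and 73.6, 55.9 and 49.5 in pDCs. It was higher in pDCs than in lo-lo cells (0.63 ± 0.17, edgeR adjusted p = 0.00985), and the difference from pre-cDCs missed the cutoff (0.59 ± 0.18, edgeR adjusted p = 0.0117).

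Cdc20 and Ube2c work with the core subunits of the APC/C. Of 14 core subunits, 0 passed from pre-cDC to pDC by edgeR, where 10.4% of all genes fell, and the median log2 fold change was -0.18. In the same comparison, 5 of the 14 had an unadjusted p under 0.05, as did 6210 of all 15293 genes. From lo-lo to pDC, 1 of the 14 passed as lower, against 7.08% of all genes. Anapc15 and Cdc27 passed the test over the 4 populations, as 19.9% of all genes did (edgeR adjusted p = 0.00691 and 0.00689), and Anapc11 had the third largest value from pre-cDC to pDC (-0.46 ± 0.16, edgeR adjusted p = 0.0248). Of 10 cohesin genes, 3 fell from pre-cDC to pDC, against 10.4% of all genes, 4 had values above 0, and the median was -0.16. The 3 were Cdca5 (sororin), which is made in S and G2 phase, by 3.28 (SE 0.26, edgeR adjusted p = 3.68e-10), the kleisin Rad21 by 1.27 (SE 0.17, edgeR adjusted p = 1.52e-06), and Smc1a by 0.69 (SE 0.19, edgeR adjusted p = 0.00612). Of 14 genes of the regulators of these promoters, 5 fell from pre-cDC to pDC, against the same 10.4% of all genes, with a median of -0.52. Of the 14, 3 had values above 0 and 11 had values below 0. Those above 0 were Rbl2 (p130), E2f4 and Lin37, all of the DREAM complex, and none passed (0.98, 0.38 and 0.29, edgeR adjusted p = 0.0956, 0.165 and 0.433). The other MuvB genes listed, Lin9, Lin52, Lin54 and Rbbp4, are of the same complex and had values below 0. Foxm1 had a CPM of 25.3 to 29.9 in pre-cDCs and 8.0 to 13.4 in pDCs (-1.48 ± 0.21, edgeR adjusted p = 4.27e-06). Mybl2 (B-Myb) was called lower (edgeR adjusted p = 0.00362), and no fold is given because a pDC library was at 0 counts. Lin9, a MuvB subunit, fell by 1.34 (SE 0.37, edgeR adjusted p = 0.00745).

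Total counts per library ranged from 1801463 to 5995971, and the floor of 3 counts from 0.5 to 1.67 CPM. The 8 pDC markers and the 6 markers of pre-cDCs and cDCs all passed over the populations. Siglech had a CPM of 206 to 443 in pre-cDCs, 729 to 999.6 in lo-lo cells, 1987 to 2367 in lo-hi cells and 2537 to 2992 in pDCs, and Zbtb46, a factor of the cDC lineage, 16.9 to 23.1 in pre-cDCs and 1.87 to 4.11 in pDCs. RNA of other bone marrow cells was present. The summed CPM of 9 neutrophil and granule genes was 4439 to 11520 in pre-cDCs, 5327 to 17760 in lo-lo cells, 9890 to 20680 in lo-hi cells and 3258 to 6620 in pDCs, with 0 of the 9 passing over the populations. It was highest within each population in wells A1 to A4. Without these 4 wells, the number of the 40 genes that fell was 39 from pre-cDC to pDC, 16 from lo-lo to lo-hi and 6 from lo-hi to pDC, with medians of -2.55, -1.14 and -1.27. Of all genes tested, 2105, 221 and 27 then passed in either direction, compared with 3324, 790 and 147 in all 12 libraries. The summed CPM of 8 erythroid genes was 4692 to 18430 in pre-cDCs, 5829 to 8227 in lo-lo cells, 9150 to 11610 in lo-hi cells and 6772 to 14220 in pDCs, and 0 of the 8 passed. The sum of 4 basophil and mast cell genes was 109.4 to 828 in pre-cDCs, high in A1 and A5, and 44.2 to 197 in the other populations. The sum of 8 B lineage genes was 69.6 to 161 in all libraries, with Cd79a at 0 in well A6, and 1 of the 8, Cd79b, passed over the populations (edgeR adjusted p = 0.00173). The sum of 5 T and NK genes was 0.223 to 7.9, and Cd3e was at 0 in 8 wells. Y-linked genes and Xist set wells A9 to A12 apart from the other 8, with Ddx3y at 19.6 to 62.9 CPM in them. Without wells A9 to A12, 39, 35 and 23 of the 40 genes fell in the same comparisons, and 2399, 628 and 99 of all genes passed in either direction. The part of these cells and wells in the levels of the 40 genes was not tested.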

How the data were processed

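The authors deposited raw counts per gene for 12 SCRB-seq libraries, made with zUMIs and STAR on mm10 with Ensembl GRCm38 genes. Whether these counts are reads or molecules (UMIs) is not stated. Libraries were grouped by well as described above and, as an alternative, by their labels. The populations came from 3 individual mice. Replicates 1, 2 and 3 of the source data matched wells A1 to A4, A5 to A8 and A9 to A12, but no source states that a number marks 1 animal, so p-values measure the spread between these libraries, which may be partly technical. Counts were scaled by TMM and tested in 1 model of all 12 libraries without covariates, with edgeR 4.0.16 (robust quasi-likelihood) in R 4.3.3, over the 15293 genes whose mean count was 1 or more, with Benjamini-Hochberg adjustment over all and a cutoff of 0.01. SE was derived from the F statistic. CPM values use the TMM-scaled totals. Total counts of 1801463 to 5995971 limit the precision of low genes, and floors cover counting error only.

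Library values are given for the 2 genes of each role with the highest mean CPM and for those with the smallest and largest change from pre-cDC to pDC. Of the other lists, the 3 largest changes and each gene called against the direction of most of its list are named, and further genes were chosen after their values were seen. The genes and lists were chosen with earlier results of these data known. Gene symbols were taken from a table of Ensembl gene names and transcript lengths from GENCODE. On simulated counts, the fit was tested before use. Alternatives were the label grouping, DESeq2 1.42.0 and its size factors, other filters and cutoffs, thinning to equal totals, fewer libraries and a block for wells.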

Additional observations from a re-analysis of the deposited data

How the results depend on the processing

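With the libraries grouped by their labels, the number of the 40 genes past the cutoff went to 0 for the population effect and for lo-hi against lo-lo, pDC against lo-hi, pDC against pre-cDC, pDC against lo-lo and lo-hi against pre-cDC. Under the labels, the log2 fold change from lo-lo to lo-hi turned positive for Cks1b (0.02), Ccnb2 (0.24), Birc5 (0.15), Aurkb (0.23), Ube2c (0.0196), Bub3 (0.0809) and Cenpa (0.17), and that from lo-hi to pDC for Cenpf (0.34), Top2a (0.48), Anp32e (0.0721) and Ect2 (0.19). Under the labels each group mixes wells of several populations as defined here.

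A pair of further alternatives were chosen after seeing the data. Without wells A1 to A4, 16 genes passed from lo-lo to lo-hi, 6 from lo-hi to pDC and 22 from pre-cDC to lo-hi, and without wells A9 to A12, 35, 23 and 32. In all 12 libraries, 790, 147 and 2001 of all genes tested passed in either direction. Without wells A1 to A4 these were 221, 27 and 978, and without wells A9 to A12 they were 628, 99 and 1416. The fall from pre-cDC to pDC held for 39 of the 40 genes in both. Fewer libraries entered these fits, and the cause was not tested further.

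Leaving out 1 library gave 25 to 38 genes from lo-lo to lo-hi, 17 to 29 from lo-hi to pDC, 27 to 37 from pre-cDC to lo-hi, 0 to 3 from pre-cDC to lo-lo, 39 to 40 from lo-lo to pDC, 40 from pre-cDC to pDC and over the populations, and 0 for the difference of the steps. Of all genes tested, the same omissions gave 381 to 945, 65 to 213, 1380 to 2339, 280 to 662 and 1568 to 2342. These ranges follow the order above. From pre-cDC to pDC and over the populations they were 2503 to 3556 and 2411 to 3335. DESeq2 called 37 and 30 genes at the steps to lo-hi and to pDC and 0 for the difference of the steps. Of the genes with an adjusted p in DESeq2, 791 of 11138 and 200 of 9655 passed at these steps. Thinned to 1801463 counts per library, 34 and 19 passed at the same steps, where 643 and 113 of all 14203 genes did. Under DESeq2, its size factors, both filters, a cutoff of 0.05, the 6 libraries alone and thinning, the counts for the other comparisons were within 1.5 times of those given above.

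The replicate numbers of the labels follow the labelled cell types, so the 3 groups of 4 neighbouring wells, which match replicates 1, 2 and 3 of the source data, were taken as the possible pairing. Wells of 1 group did not all deviate together from the population means (over all genes tested, correlation of -0.15 to 0.309 in 18 pairs, 11 above 0.1), although 10 of the 12 wells were closest to their own group. With these groups as a replicate block, 38 genes passed from lo-lo to lo-hi, 31 from lo-hi to pDC, 38 from pre-cDC to lo-hi and 0 from pre-cDC to lo-lo. Of all genes tested, 1063, 346, 2482 and 743 then passed in either direction, compared with 790, 147, 2001 and 483 without the block. Depth limits the low genes, such as Bub1 with 3 counts in well A12.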
